A study of Mus musculus with 12 samples.

Results

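Intragenic sense long noncoding RNAs (lncRNAs) are transcripts that the authors' annotation places within a protein-coding or other gene and on its strand. They made up 249 of the 15558 lncRNAs in the deposited table, and they were taken as all entries that the authors put in that class. The other classes held 13343 intergenic and 1966 antisense lncRNAs. RNA came from livers of untreated CD-1 mice, an outbred stock, with intact males and females aged 7 to 11 weeks. Total RNA and RNA of isolated nuclei were sequenced after partial removal of ribosomal RNA. The 12 libraries formed 4 groups of 3 pools each, one for either RNA fraction in either sex, and a pool held RNA of 12 to 17 mice. All male total pools were run in lane 3, as was 1 female total pool, whereas the other 2 female total pools and all nuclear pools were run in lane 4. The sexes in nuclear RNA were thus compared within 1 lane. For total RNA the lanes were partly shared by the sexes, and in females partly by the RNA fractions, whereas in males fraction and lane cannot be told apart. The values per library given here are not tied to a lane. Where all libraries of one group lie above all of another, this also holds between those of their libraries that share a lane. For the sexes in total RNA that is only 1 female pool against the male pools. In males no total pool shares a lane with a nuclear pool, so nothing follows there.

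An lncRNA on the sense strand of a gene can be a transcript of its own with its own start, a small RNA cut from an intron, a stable piece of intron, or an isoform of the host gene that is not translated. Many genes for drug and steroid metabolism in mouse liver lie in tandem families of close copies. Their expression in one sex follows the pattern of pituitary growth hormone release, which is pulsed in males and near continuous in females, and acts in part through the transcription factor STAT5.

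Small RNAs within host genes were among the named members. Snord17, a box C/D small nucleolar RNA, lies on the minus strand in the host gene Snx5, a sorting nexin (mm9 chr2:144091718-144091938). Scarna6, named Scar6 in the deposited table, is a small RNA of Cajal bodies on the plus strand within Atg16l1, an autophagy gene (mm9 chr1:89681146-89681393). Their GENCODE M21 transcripts (GRCm38 chr2:144265979-144266216, minus strand, and chr1:87784556-87784820, plus strand) are shown because they carry letters typical of this RNA kind. The capitals mark each TGATGA, the letters of box C, and each CTGA, the letters of box D, on the strand shown.

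Snord17: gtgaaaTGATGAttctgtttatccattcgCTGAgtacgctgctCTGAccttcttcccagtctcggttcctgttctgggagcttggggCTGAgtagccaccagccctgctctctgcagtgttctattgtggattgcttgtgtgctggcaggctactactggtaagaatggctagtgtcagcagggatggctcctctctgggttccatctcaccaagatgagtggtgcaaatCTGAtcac
Scarna6: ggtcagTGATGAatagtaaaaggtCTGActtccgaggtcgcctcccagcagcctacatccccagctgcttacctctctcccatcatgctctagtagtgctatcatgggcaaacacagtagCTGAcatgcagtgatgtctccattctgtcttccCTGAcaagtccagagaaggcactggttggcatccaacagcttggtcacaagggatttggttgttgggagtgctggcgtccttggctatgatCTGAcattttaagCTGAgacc

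Snord17 held 1 match to TGATGA and 4 to CTGA in 238 bases, and Scarna6 held 1 and 5 in 265 bases. These are matches of letters, and most matches to the short CTGA lie away from the ends where box D is found.

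The second set of sequences comes from tandem P450 genes that host many of the members with the largest sex differences. They are RefSeq promoters on GRCm38.p6, from 250 bases before to 50 bases after the gene's start, and capitals mark bases that differ between the copies. Cyp3a41a (chr5:145720087-145720386) and Cyp3a44 (chr5:145805825-145806124), both on the minus strand, encode steroid hydroxylases. Cyp2b13 (chr7:26061245-26061544) and Cyp2b9 (chr7:26173159-26173458), both on the plus strand, encode female-predominant P450 enzymes.

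Cyp3a41a: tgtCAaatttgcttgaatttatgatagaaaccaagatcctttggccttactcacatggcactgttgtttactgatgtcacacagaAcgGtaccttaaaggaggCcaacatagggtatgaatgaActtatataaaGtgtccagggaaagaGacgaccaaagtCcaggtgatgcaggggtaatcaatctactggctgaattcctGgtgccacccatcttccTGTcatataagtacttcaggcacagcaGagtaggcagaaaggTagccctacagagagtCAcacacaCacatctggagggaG
Cyp3a44: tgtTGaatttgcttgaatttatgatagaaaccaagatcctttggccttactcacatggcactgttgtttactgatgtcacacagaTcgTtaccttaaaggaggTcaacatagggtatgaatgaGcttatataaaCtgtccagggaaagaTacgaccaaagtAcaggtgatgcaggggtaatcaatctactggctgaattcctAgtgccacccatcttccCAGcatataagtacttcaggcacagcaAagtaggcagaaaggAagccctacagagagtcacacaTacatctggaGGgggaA
Cyp2b13: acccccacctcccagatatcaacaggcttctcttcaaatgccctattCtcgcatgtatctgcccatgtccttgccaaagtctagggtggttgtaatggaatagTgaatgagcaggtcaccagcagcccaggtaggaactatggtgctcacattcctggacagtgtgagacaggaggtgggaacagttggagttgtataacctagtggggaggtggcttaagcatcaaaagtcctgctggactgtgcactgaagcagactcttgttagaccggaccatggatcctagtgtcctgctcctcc
Cyp2b9: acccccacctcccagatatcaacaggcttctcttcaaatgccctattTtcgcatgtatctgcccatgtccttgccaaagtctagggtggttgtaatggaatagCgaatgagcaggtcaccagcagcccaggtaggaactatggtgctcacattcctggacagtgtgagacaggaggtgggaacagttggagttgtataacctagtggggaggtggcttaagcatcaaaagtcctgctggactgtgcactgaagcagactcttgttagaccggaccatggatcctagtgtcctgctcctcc

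The Cyp3a promoters were identical in 281 of 302 aligned columns (93.0%) and the Cyp2b promoters in 298 of 300 (99.3%). The letters TATAAA, searched on both strands, were present in both Cyp3a promoters and in neither Cyp2b promoter, and in 13.6% of 32851 promoters of the same length. The letters TTCNNNGAA, which read the same on both strands and are the core bound by STAT factors, were in none of the 4 windows and in 8.30% of all promoters.

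Before the values, the libraries are described once. The deposited values are mean RPKM of each group (reads scaled to exon length and library size), and nearly all means tried could be written as whole read numbers. From these steps the 12 library sizes were found to be 10.2, 11.3 and 13.5 M reads (M, mega) for female total RNA and 6.43, 11.8 and 13.8 M for male total RNA. Nuclear libraries held 11.7, 12.0 and 12.4 M reads in females and 11.1, 12.2 and 12.4 M in males. The reads in each library were recovered for 103 of 104 single-exon members above 0 (99.0%) and 131 of 134 spliced members (97.8%). A library is known here by its size and is not tied to a numbered pool, so values per library are given in order of size. The middle female total library stood apart: over 242 members its summed level was 822 RPKM, against 197 and 370 RPKM in the other two. It was the highest of its group for 175 of 204 members above 0, and the other groups spread less. In the RefSeq table hepatocyte genes such as Alb were abundant (5481 FPKM in female and 2711 FPKM in male total RNA). Among the pancreatic genes looked up, Prss1 was listed at 0 in all groups and Cpa1 at no more than 0.0668 FPKM. The third, Cela1, had 2.78 and 2.09 FPKM in total RNA and 0.515 and 0.311 FPKM in nuclear RNA, females first. Xist was 94.0 FPKM in female and 0.162 FPKM in male nuclear RNA, and the nuclear lncRNA Malat1 was 737 FPKM in nuclear against 201 FPKM in total RNA of females.

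Members fell into a pair of structural kinds. A single exon was recorded for 111 members and 2 to 6 exons for 138. A RefSeq gene on the same strand overlapped 234 of them, and 139 genes served as the host with the most shared bases. The whole span lay inside 1 host for 121 members, of which 98 were single-exon. Another 79 ran past their host, 34 had their ends in different genes, and 15 overlapped no gene of the RefSeq table.

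Spans and counted lengths differed widely. Among 95 members with spans over 20 kb and at least 20 recovered reads, the median span was 102344 bases and the median counted exon length was 622 bases. The exons covered a median of 0.806% of these spans, and under 1% of the span in 51 of them. Member ncRNA_intra_chr5_4732 (mm9 chr5:146340359-146612450) had 159 counted bases in 272092. For single-exon members the counted length was taken as the span, and those with recovered reads had a median of 1087 bases.

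**Figure D1:**
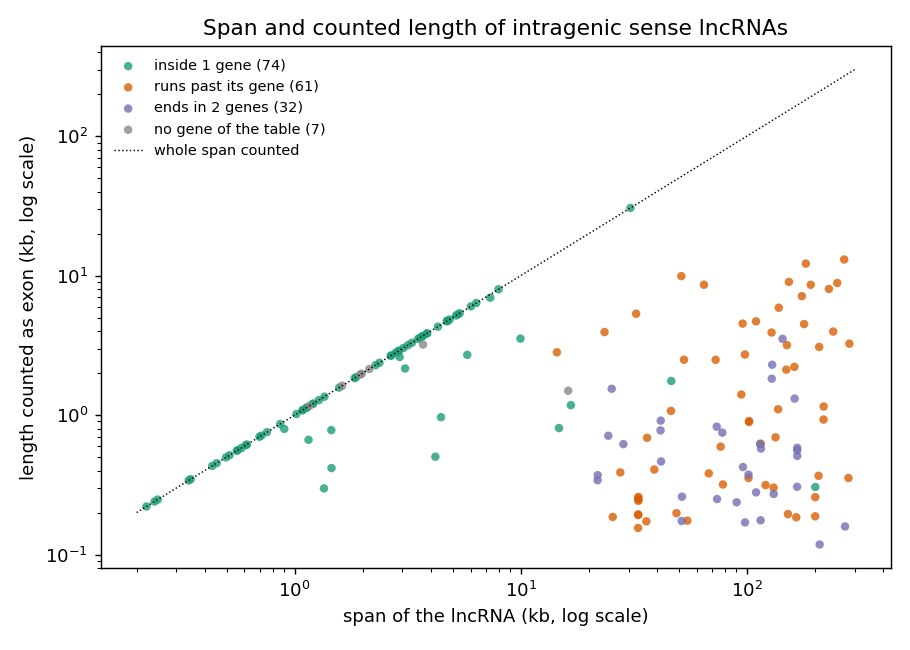
Counted exon length (kb, log axis) against span (kb, log axis) of the members with at least 20 recovered reads, with colours for position relative to host genes and a dotted line where the whole span is counted. Most members inside 1 gene follow the line, where single-exon members lie because their counted length was taken as their span. Most members that leave their gene lie at spans over 20 kb, far below it.

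The members whose ends lay in different genes joined close copies of a family. The 34 members used 23 gene pairs, such as Cyp2b13 with Cyp2b9, Sult2a1 with Sult2a4 and Serpina1b with Serpina1c. For 22 pairs a transcript of each gene was at hand, and the transcripts were 73.9% to 97.9% identical over their aligned bases (median 91.7%). At least 80% identity was reached by 19 pairs with 29 members. Reads from copies this alike can be placed in either gene, so the position and level of these members are uncertain, and the part that shared sequence has in their values was not tested.

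The carboxylesterase genes Ces1b and Ces1c, which encode enzymes of ester and drug hydrolysis, held 12 members within 76.7 kb. In 7 of them the span lay between 33.052 and 33.155 kb, a range of 103 bases, although their starts were spread over 2471 bases and their ends over 2419 bases. Start and end thus moved together. The transcripts of Ces1b and Ces1c were 91.4% identical. Among 11 members of Serpina1 genes, which encode the protease inhibitor alpha-1-antitrypsin, 4 had spans of 167.080 to 167.284 kb with starts spread over 7603 bases.

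**Figure D2:**
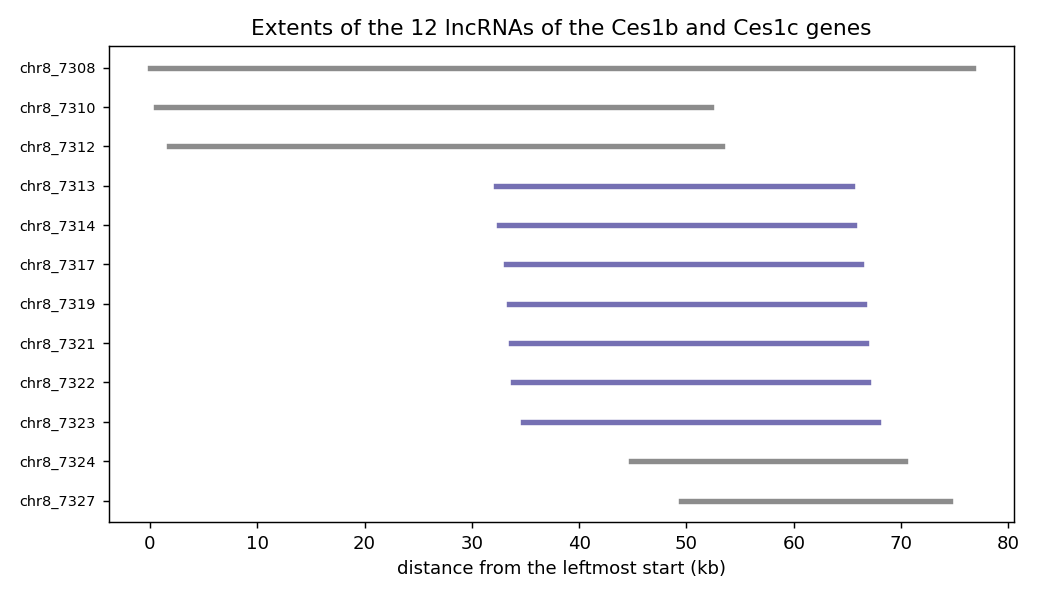
Extents of the 12 members at Ces1b and Ces1c, drawn as bars against distance from the leftmost start (kb). Purple bars are the 7 members of 33.052 to 33.155 kb, whose ends shift in step with their starts, and grey bars are the other members.

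At the other extreme, single-exon members were laid out in rows within one gene. Inpp4b, a phosphoinositide phosphatase, held 20 of them, each 268 to 1397 bases long. Together they had 14 reads in female total, 3 in male total, 15 in female nuclear and 21 in male nuclear RNA, and none exceeded 0.179 RPKM. At 1700112E06Rik, 13 single-exon members reached at most 0.280 RPKM, and Grip1, a synaptic scaffold gene, held 5 members of at most 0.0230 RPKM. Fgd4, a guanine nucleotide exchange factor, held 4 members with 43, 35, 113 and 142 reads in the same order of groups.

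Members were more often above 1 RPKM than entries of the other classes. At least 1 RPKM in a group was reached by 111 of 246 members with usable values (45.1%), 277 of 1966 antisense lncRNAs (14.1%) and 848 of 13343 intergenic lncRNAs (6.36%). In 8 members all 4 groups were at 0. The usable values leave out 3 entries at the end of the table, stored in another order, of which 1 was at 0 throughout and the values of the other two were not whole reads of these libraries. The highest member was ncRNA_intra_chr16_13383, a single exon of 572 bases in Cmss1, with 59282 RPKM in female total, 66558 in male total, 29897 in female nuclear and 36969 in male nuclear RNA. Alone it took 3.39% and 3.81% of the reads in the total RNA groups and 1.71% and 2.11% in the nuclear groups. The next were ncRNA_intra_chr2_1052 in Camk1d, a calcium-dependent kinase gene, and ncRNA_intra_chr16_13382 in Filip1l. Camk1d itself had 3.26 and 1.16 FPKM in female and male total RNA, while the lncRNA had 12702 and 14045 RPKM. Cmss1 had 0.378 and 0.183 FPKM in the same groups. Removal of ribosomal RNA was partial, and what share of the reads of these members came from ribosomal sequence was not tested.

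In total RNA, 16 of 246 members (6.50%) passed an adjusted p of 0.05 in the authors' deposited table, 15 higher in females and 1 higher in males. Over all 15555 usable lncRNAs the share called was 0.932%. Part of this distance went with level: among entries with at least 1 RPKM in a group, 16 of 77 members (20.8%) and 13% of all lncRNAs were called. In nuclear RNA, 30 members (12.2%) were called in the authors' deposited table, 26 higher in females and 4 higher in males, against 4.11% of all lncRNAs. At 1 RPKM or more the shares in nuclear RNA were 29 of 111 members (26.1%) and 24.3% of all lncRNAs, which lie close together. By direction, the table as a whole had 0.482% female-higher and 0.45% male-higher calls in total RNA, and 2.17% and 1.94% in nuclear RNA. The called members were not independent, since 10 of them belonged to the overlapping Cyp3a set. Without that set 6 of 235 members (2.55%) in total RNA and 20 of 235 (8.51%) in nuclear RNA were called. These shares are over all levels and were not set against entries of like level. All 11 Cyp3a members had at least 1.35 RPKM in female total and 5.64 RPKM in female nuclear RNA. They are thus part of the shares at 1 RPKM or more, so no excess at like level can be read without them.

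The calls fell almost wholly on long, spliced members. All 16 calls in total RNA and 27 of 30 in nuclear RNA were on spliced members, with none and 3 on single-exon members. By edgeR in the authors' deposited table, 3 of 109 single-exon members had an unadjusted p under 0.05 in total RNA and 15 in nuclear RNA. The kinds differed in level: 81 of 137 spliced (59.1%) and 30 of 109 single-exon members (27.5%) reached 1 RPKM in a group. In either fraction 10 of the spliced calls were the overlapping Cyp3a set. The kinds were not compared at like level. The called set of 31 members had 20 hosts, and 15 members were called in both RNA fractions. Over the recovered members, the libraries of the sexes did not overlap in total RNA for 14 of 15 called female-higher, and still for 14 without the middle female library. In nuclear RNA they did not overlap for 26 of 26 female-higher and 3 of 3 male-higher calls. Members that were not called often did not overlap either: of 242 members in all, 21 lay higher in females and 1 in males without overlap in total RNA, and 52 and 13 in nuclear RNA. Without the middle female library the counts in total RNA were 22 and 17. Groups with fewer libraries also separate more easily, so the change in the male-higher count cannot be laid to that library alone. The same counts over all lncRNAs were not made. The exception in total RNA was ncRNA_intra_chr8_7308. The deposited log2 values exceeded the quotient of the group means by a median of 0.52 in total and 0.11 in nuclear RNA over lncRNAs of at least 1 RPKM in both sexes. No called member changed direction on that quotient.

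Cyp3a members were the largest group of calls. The cytochromes P450 of subfamily 3A oxidise steroids and drugs, and 10 of 11 members there were called higher in females in both fractions. Member ncRNA_intra_chr5_4728 (mm9 chr5:146227188-146406523, minus strand, 4497 counted bases) runs from Cyp3a16 over a locus (chr5:146319532-146345599) that the deposited table lists for both Cyp3a41a and Cyp3a41b. Cyp3a41a has another locus there at chr5:146505623-146531712, which this member does not reach, and the table gives 1 set of values for both loci. Its level was 0.522, 2.22 and 1.55 RPKM in the female total libraries and 0, 0.0189 and 0 RPKM in the male total libraries. In nuclear RNA it was 7.54, 10.1 and 7.09 RPKM in females and 0.0200, 0 and 0 RPKM in males. Every female library thus lay far above every male library in both fractions. Over the group, 1334 female nuclear reads faced 1 male read, a ratio of 1318 with a 95% interval of 236 to 52093 for counting error only. The authors' deposited table gave log2 -9.81 with an adjusted p of 7.70e-123. Of the called Cyp3a members, 9 were listed at 0 or had a single read in male total RNA.

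ncRNA_intra_chr5_4741 (mm9 chr5:146402364-146611489) had 179 female total reads and 0 male reads, which is at least 54.4-fold higher taking 3 reads over the male group as the floor. In nuclear RNA it had 893 female and 3 male reads. The members that reach Cyp3a11, a gene of both sexes, behaved less one-sidedly. ncRNA_intra_chr5_4734 had 848 female and 99 male nuclear reads, a ratio of 8.46 (95% interval 6.87 to 10.5, counting error only). For ncRNA_intra_chr5_4738, the only Cyp3a member not called, male nuclear levels of 5.09, 18.3 and 9.38 RPKM overlapped the female levels of 19.1, 18.8 and 15.8 RPKM. Its host, chosen by most shared bases, was Cyp3a44, with 10.9 FPKM in female and 0.0395 FPKM in male nuclear RNA.

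**Figure D3:**
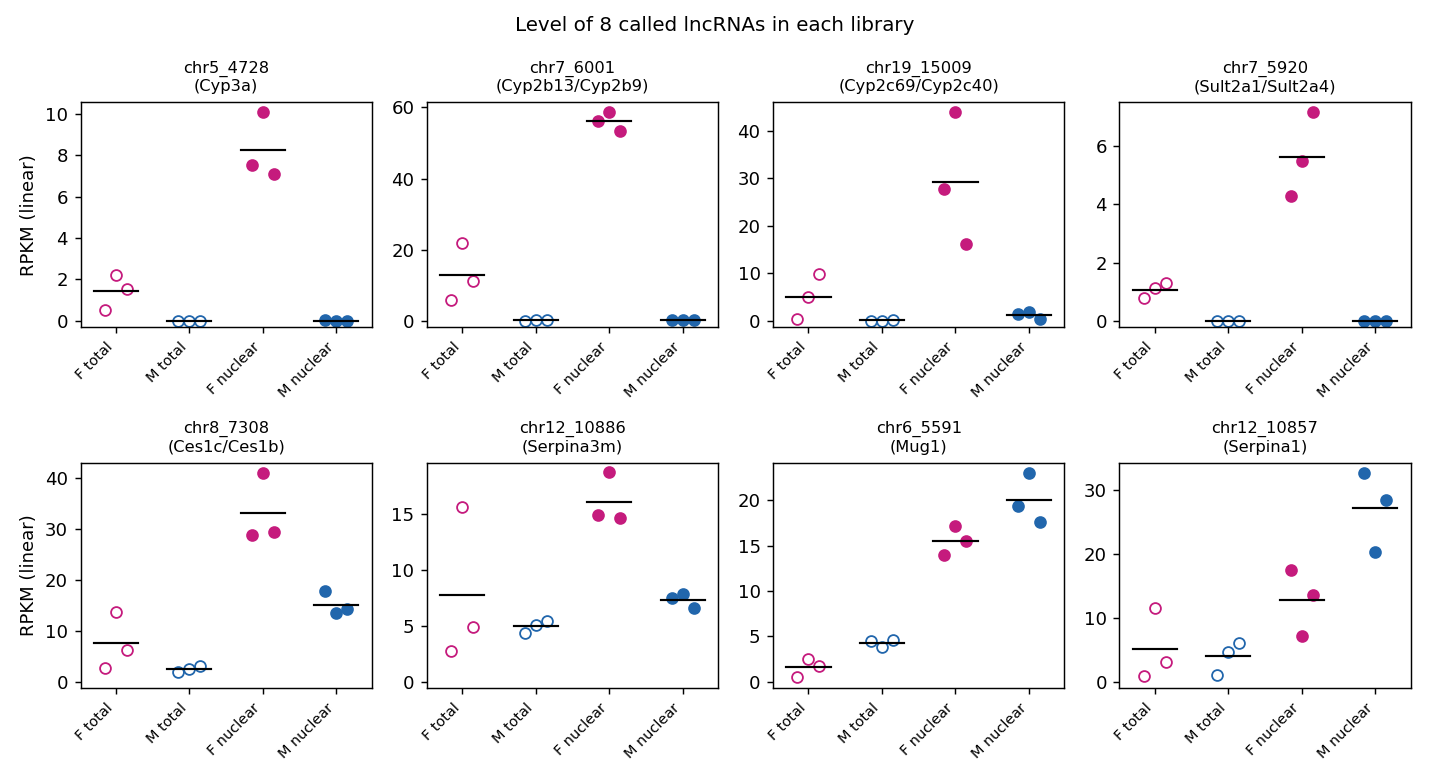
Level (RPKM, linear axis) of 8 called members in each of the 12 libraries, with open points for total RNA, filled points for nuclear RNA, pink for females, blue for males and bars for the deposited group means. The Cyp3a, Cyp2b, Cyp2c and Sult2a members are near 0 in all male libraries, and the middle female total library is the highest of its group in most panels.

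The Cyp2b member, ncRNA_intra_chr7_6001 (mm9 chr7:26855254-26965199, plus strand), starts in Cyp2b13 and ends in Cyp2b9, whose promoters are printed above. It had 279 counted bases and 5.96, 21.8 and 11.1 RPKM in female total RNA against 0, 0.304 and 0.261 RPKM in males. In nuclear RNA it reached 56.3, 58.6 and 53.4 RPKM in females and 0.323, 0.295 and 0.290 RPKM in males, with a single read in each male library. The authors' deposited table gave log2 -5.24 in total RNA (adjusted p 6.51e-19) and -7.27 in nuclear RNA (adjusted p 1.00e-90). Its host Cyp2b13 had log2 -7.57 in nuclear RNA of the authors' deposited table, with 14.1 FPKM in females and 0.0663 FPKM in males.

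Sulfotransferases of the Sult2a group attach sulfate to steroids and bile acids. ncRNA_intra_chr7_5920, between Sult2a1 and Sult2a4, had 5, 8 and 11 reads in the female total libraries and 31, 41 and 55 in the female nuclear libraries. No read was counted in any male library, which is at least 7.29-fold and 41.8-fold higher in females. Its neighbour ncRNA_intra_chr7_5919 had 4, 10 and 7 reads in female nuclear libraries and none in total RNA or in males, and was called in nuclear RNA.

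In the Cyp2c group, whose enzymes oxidise fatty acids and drugs, both called members join Cyp2c40 and Cyp2c69, whose transcripts were 97.8% identical. ncRNA_intra_chr19_15009 had 27.8, 43.9 and 16.2 RPKM in female nuclear RNA and 1.44, 1.97 and 0.324 RPKM in male nuclear RNA. The groups did not overlap, although the female values spread widely. Log2 in the authors' deposited table was -4.41 with an adjusted p of 2.36e-19, and the other member, ncRNA_intra_chr19_15008, had -2.50. The other 7 Cyp2c members were not called in either fraction.

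Smaller differences were found in the Ces1 members. Of 12 members, 4 were called higher in females in nuclear RNA and 1 of these also in total RNA. ncRNA_intra_chr8_7308 had 28.7, 41.1 and 29.4 RPKM in female and 17.7, 13.4 and 14.3 RPKM in male nuclear RNA. In total RNA its female libraries held 2.64, 13.7 and 6.22 RPKM and its male libraries 1.83, 2.43 and 3.06 RPKM, so that the groups overlapped. The authors' deposited table gave log2 -1.02 in nuclear RNA and -1.10 in total RNA, while the host Ces1c had -0.48 and -0.57.

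Other female-higher calls in nuclear RNA were spread over serpins, lymphocyte antigens and single-exon members. ncRNA_intra_chr12_10886, over the protease inhibitor genes Serpina3m and Serpina3k, had 14.9, 18.8 and 14.6 RPKM in females and 7.51, 7.84 and 6.55 RPKM in males. ncRNA_intra_chr15_12674, across Ly6c1, Ly6c2 and Ly6a, cell surface antigens of blood cells, had 1.38, 1.25 and 1.57 RPKM in females and 0.531, 0.242 and 0.182 RPKM in males. In total RNA the same member had 0, 41 and 1 reads in the female libraries, so that its total RNA mean rested on the middle library. Its host Ly6c1 was not called in either fraction. The 3 called single-exon members lay in Wwc1, a scaffold gene of the Hippo pathway, in Zmiz1, a transcriptional coregulator gene, and in Onecut2, a liver transcription factor gene. They had 197, 223 and 201 female against 126, 106 and 97 male nuclear reads in Wwc1, 171, 145 and 141 against 69, 104 and 92 in Zmiz1, and 112, 105 and 117 against 58, 66 and 61 in Onecut2. The weakest call in nuclear RNA was ncRNA_intra_chr16_13152 at Kng1, the kininogen gene, with an adjusted p of 0.0391 in the authors' deposited table. The nearest member outside, ncRNA_intra_chr17_13866 at H2-K2, had 0.0614 in the authors' deposited table.

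Few members were higher in males. In total RNA it was ncRNA_intra_chr6_5591, which runs past Mug1, a gene of a plasma protease inhibitor. It had 4.48, 3.78 and 4.57 RPKM in males and 0.512, 2.54 and 1.74 RPKM in females, with log2 1.80 and an adjusted p of 0.000553 in the authors' deposited table. In nuclear RNA it was not called, at 19.3, 23.0 and 17.6 against 13.9, 17.2 and 15.5 RPKM. In nuclear RNA ncRNA_intra_chr19_14773, between the transporter genes Slc22a28 and Slc22a29, had 12.2, 13.5 and 7.62 RPKM in males and 4.54, 4.89 and 1.43 RPKM in females. ncRNA_intra_chr12_10857, a 4-exon member with ends in Serpina1b and Serpina1c, had 32.7, 20.3 and 28.3 RPKM in males and 17.5, 7.12 and 13.6 RPKM in females. Its total RNA libraries overlapped, at 1.11, 4.70 and 6.10 RPKM in males and 0.874, 11.5 and 3.04 RPKM in females. The other male-higher nuclear calls were ncRNA_intra_chr2_1052 in Camk1d, at log2 0.79, and ncRNA_intra_chr18_14532 past Gm4951, at log2 0.46, in the authors' deposited table.

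Hosts of called members were mostly called in the same direction. In total RNA the host of all 16 called members was called the same way, and in nuclear RNA this held for 26 of 30 called members, while the hosts of the other 4 were not called. These are counts of members, 8 of which share the host Cyp3a41a. Member and host overlap on the same strand, so the same reads can count for both. The values of member and host therefore need not be independent, and the shared part was not tested. Among RefSeq genes above 0, 4.46% were called in total and 5.8% in nuclear RNA of the authors' deposited table. Hosts of this class were called more often, namely 25 of 136 distinct hosts in total RNA and 31 of 136 in nuclear RNA. Counted by members with a host, these were 57 of 231 and 67 of 231. The hosts not called in nuclear RNA were Ly6c1, Gm7609, Zmiz1 and Camk1d. Camk1d was called higher in females in total RNA, with log2 -1.0 in the authors' deposited table, where its lncRNA had -0.01. Many members with a called host were not called: of 57 in total RNA, 41 were not called themselves, and of 67 in nuclear RNA, also 41. Members with few reads can miss a call, such as the 4 at Cyp2c54 with 112 reads in all. No difference from the host can thus be read from this count. The counts share hosts, since the 57 members lay in 25 genes and the 67 in 31 genes.

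**Figure D4:**
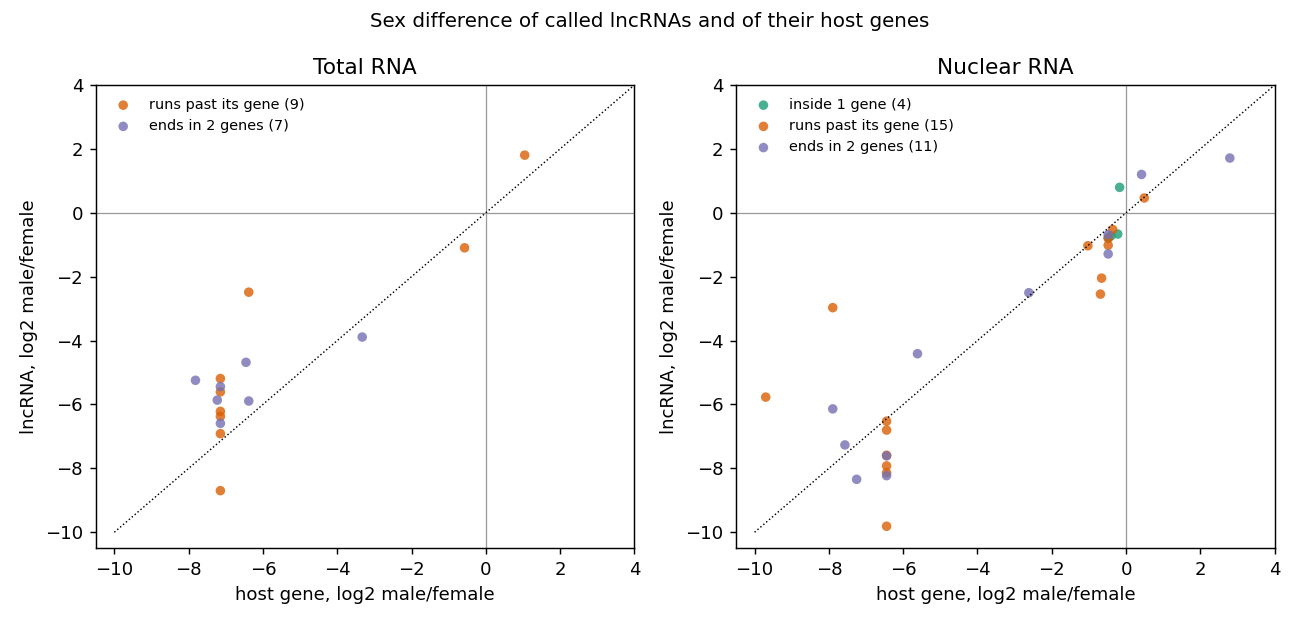
The authors' log2 male over female of each called member (vertical axis) against that of its host gene (horizontal axis) in total RNA and in nuclear RNA, with colours for position and a dotted line where both are equal. The 16 members in total RNA lie in the quadrants of shared sign, and in nuclear RNA the Camk1d member is the point above 0 with its host below 0.

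Among members with at least 1 RPKM in a group, levels were mostly higher in nuclear than in total RNA, relative to each library's other reads. Over 111 members with at least 1 RPKM in a group, the median log2((nuclear + 1)/(total + 1)) of the group means was 1.32 in females and 1.27 in males. Antisense lncRNAs had 1.05 and 1.01 and intergenic lncRNAs 0.92 and 0.93. This order depended on the pseudocount: with 0.1 in place of 1 the medians were 1.77 and 2.06 for the members, 2.25 and 2.23 for antisense and 1.73 and 2.02 for intergenic lncRNAs. No difference between the classes can be read from these values. The filter matters as well. All 111 members reached 1 RPKM in a nuclear group but 77 did in a total RNA group, so it favoured high nuclear levels. Over all 246 usable members, without the filter, the median in total and nuclear RNA was 0.227 and 0.784 RPKM in females. In males it was 0.0934 and 0.539 RPKM.

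Members were also set against their hosts, with both filtered at 1 RPKM or FPKM in a group, so the same limit of the filter holds. Over 98 members with values for both, which share 57 hosts, the median of both sexes was 1.36 for the members and -0.72 for the hosts, and 94 members lay above their host. With a pseudocount of 0.1 the medians were 1.92 and -0.95, and 95 members lay above. Members inside 1 gene (32) had 1.15 against 0.20 for hosts, and members that leave their gene (66) had 1.47 against -1.11. Centred on the median of its own table, the picture was weaker: 73 of 98 members lay above their host, with medians of 0.40 and -0.53. Members that leave their gene kept the direction on that scale, with 0.51 against -0.92 and 59 of 66 above their host. Members inside 1 gene did not, with 0.19 against 0.39 and 14 of 32 above. The direction for members inside 1 gene therefore depends on the centring, and no test was made of these values.

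**Figure D5:**
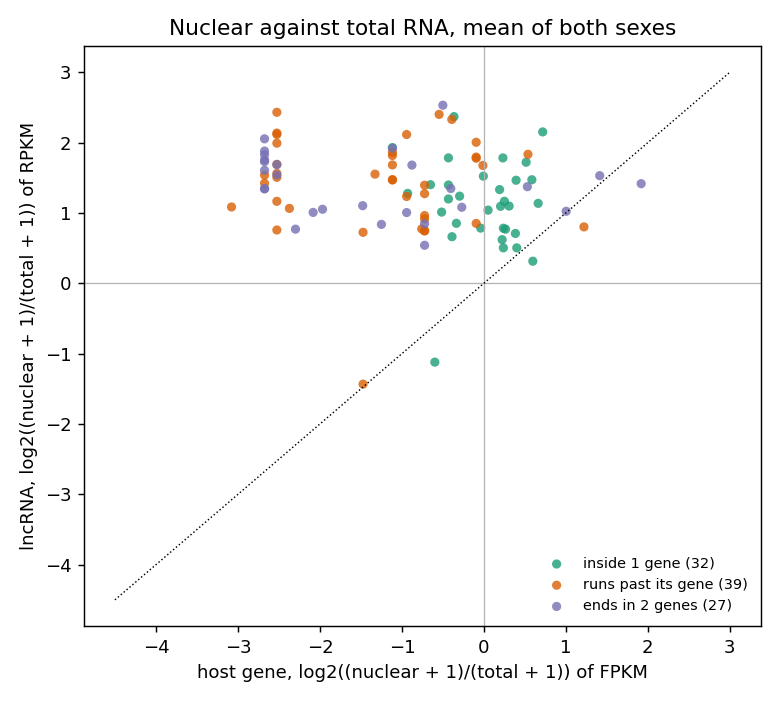
Log2((nuclear + 1)/(total + 1)), mean of both sexes, of 98 members (vertical axis, from RPKM) against their host genes (horizontal axis, from FPKM), with colours for position and a dotted line of equality. Of the points, 94 lie above the line on this uncentred scale (73 when each table is centred on its median), and the spread of the hosts is wider than that of the members.

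Single members stood out at both ends. Snord17 was 113.8, 112.8 and 145.3 RPKM in female nuclear and 123.9, 163.7 and 126.0 RPKM in male nuclear RNA, against 12.8, 63.9 and 26.1 and 8.44, 22.7 and 21.1 RPKM in total RNA. No library of total RNA reached a nuclear library, and the sexes overlapped in both fractions. Scarna6 had 60.6 and 63.9 RPKM in the nuclear groups and 15.8 and 11.0 RPKM in the total RNA groups, females first. The highest nuclear level relative to total RNA was that of ncRNA_intra_chr12_10883, which joins Serpina3b and Serpina3k, with 87.2 and 74.95 RPKM against 11.4 and 15.2 RPKM. At the low end, ncRNA_intra_chr12_10888, past Serpina3m, had 42.0, 144 and 75.02 RPKM in female and 69.9, 89.7 and 98.8 RPKM in male total RNA. In nuclear RNA it had 29.9, 42.8 and 33.1 and 31.4, 27.4 and 25.3 RPKM, so total RNA was higher in males without overlap, whereas in females the ranges overlapped. ncRNA_intra_chr11_9610 in Kcnip1, a gene of a potassium channel partner, was also lower in nuclear RNA, with 13.6 and 16.2 RPKM in the total and 5.19 and 6.80 RPKM in the nuclear groups, females first. The Camk1d and Cmss1 members had the same direction, and the source of their reads was not tested. Peg13, an imprinted lncRNA within Trappc9, came next below the median lncRNA but was not lower in nuclear RNA itself, at 0.814 and 0.369 RPKM in total and 1.13 and 0.804 RPKM in nuclear RNA.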

How the data were processed

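Liver RNA of 4 groups of 3 pools was measured by RNA sequencing, and groups were taken from the labels. TopHat2, edgeR, featureCounts and the build mm9 are listed in the submitters' processing notes, and their versions and settings were not used here. For lncRNAs the deposited columns are, per the file headers, group mean RPKM values, log2 male/female fold changes from edgeR, p-values and false discovery rates. For RefSeq genes the authors deposited group mean FPKM values, male/female ratios, a signed fold change (a score) and adjusted p-values, per the file headers. Whether counting used strand is not given. The deposited tables hold no values of single pools (0 columns left unused), so the planned fits could not be run and calls are those of the authors' table at an adjusted p under 0.05. The p-values measure the spread between pools.

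Library sizes and whole read numbers were solved from the deposited mean RPKM values (within 1e-08 reads), with counted lengths of 50 to 60000 bases tried for spliced members. On simulated members 120 of 120 single-exon and 120 of 120 spliced ones were recovered exactly. These had the same mean number of reads in every group and were shorter than the longest members. They do not cover members with reads in a single group or sex. For spliced members the shortest length that gave whole reads was kept. The reads describe libraries only and entered no test. The 3 entries stored in another order were left out: in the 2 single-exon ones, none of 16 pairs of value and group gave whole reads, and the nuclear false discovery rate of one was 0.00035, where the next larger p-value of the table had 0.000818. They are ncRNA_intra_chr9_8386, ncRNA_intra_chrX_15427 and ncRNA_intra_chrX_15500.

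Hosts were RefSeq loci sharing at least 1 base on the same strand, with the most shared bases, strand coming from GENCODE M21 or RefSeq; 230 of 238 overlapping genes had one. Identity was computed by pairwise alignment (Biopython 1.88) of the longest transcripts. Python 3.11.15, pandas 2.3.3, numpy 2.4.6, scipy 1.17.1, numba 0.67.0 and matplotlib 3.10.9 were used. Nuclear against total RNA used a pseudocount of 1 and at least 1 RPKM in a group. Exact 95% intervals and the floor of 3 reads cover counting error only, and reads without molecular identifiers are not independent molecules.

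Named members were those called (up to 12 per direction and fraction), the 10 highest, the 6 highest and lowest in nuclear against total RNA and those next to the threshold. Others, such as the rows of single-exon members and ncRNA_intra_chr5_4738, were named after their values were seen. The class, the lists and the rules were chosen with earlier results of these data known. Thresholds, filters, pseudocounts, centring and overlap rules were varied.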

Additional observations from a re-analysis of the deposited data

How the results depend on the processing

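Counts of calls stayed within 1.5 times at adjusted p thresholds of 0.01 and 0.1, with filters of 0.1 and 1 RPKM, and on the quotient of the means. The reordered entries are left out throughout, and with them male-higher nuclear calls were 5 in place of 4. At 2-fold or more, male-higher nuclear calls went from 4 to 2. Among members inside 1 gene, a choice made after seeing the data, calls were 0 male-higher and 0 female-higher in total RNA and 1 and 3 in nuclear RNA. The nuclear against total median, centred on the lncRNA table, was 0.36 in females and 0.31 in males. It reversed to -0.016 and -0.0076 with a pseudocount of 0.1 and to -0.10 and -0.11 with 0.01; the cause was not tested. It was 0.53 and 0.39 from 0.1 RPKM, 0.34 and 0.29 without a filter, 1.32 and 1.27 without centring and 1.63 and 1.34 centred on the RefSeq table. A host was found for 234 members by 1 base, for 138 by at least 50% of the span and for 121 by all of it. With the whole span inside, 0 members in total and 2 in nuclear RNA shared their host's direction; among such members, 0 and 4 were called at all.

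No paired analysis was possible because the tables hold group means, and leaving out a pool in the authors' comparison was not run for the same reason. Members with low levels or short counted lengths can rest on few reads per library, and RPKM alone does not show this. ncRNA_intra_chr5_4730, with 176 counted bases, had 19 reads in female total RNA at 3.02 RPKM. Peg13, with 4725 counted bases, had 531 reads over all groups at 0.369 to 1.13 RPKM. Members across near-identical genes rest on reads that can be placed in either copy.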
